A study of Mus musculus with 4 samples.

Results

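Afp, Alb and Pth encode secreted proteins of endoderm-derived cells, and they were measured here in cardiac neural crest cells (NCCs) of E10.5 mouse embryos with and without integrin-linked kinase (ILK). These genes were chosen by the authors' own comparison of the same arrays: members are the probe sets that carry only the name Afp, Alb or Pth in the table of differences that the authors deposited. A probe set is a group of short array probes read together as 1 value. This gave 6 probe sets, 4 for Afp, 1 for Alb and 1 for Pth, of 766 in that table and of 45101 on the array. The difference between genotypes thus decided membership, and it is given as a description with no test. A probe set of these genes that the authors did not list would carry no name here and was not analysed.

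The samples were NCCs sorted from dissected outflow tracts (OFTs) of 2 genotypes, with 2 arrays each that the labels call biological replicates. The NKO mutants were Wnt1-Cre; ILK f/f embryos, in which Cre driven by Wnt1 regulatory sequence deletes ILK in the neural crest lineage. The labels name the controls wild type, while the study describes its littermate controls as heterozygous, Wnt1-Cre; ILK f/+, so that Wnt1-Cre and 1 deleted Ilk allele would be shared. Both genotypes carried a lacZ reporter of the lineage, OFTs of a genotype were pooled, and lacZ-positive cells of several sorts were joined for RNA. No source used here tells how embryos were divided between the arrays of a genotype, so the spread between arrays may be partly technical.

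Alpha-fetoprotein and albumin are neighbouring members of 1 gene family. Alpha-fetoprotein is the main serum protein of the early embryo and is made by the visceral endoderm of the yolk sac and by fetal liver, while albumin carries fatty acids and hormones in blood and is made by hepatocytes. Parathyroid hormone raises blood calcium and comes from the parathyroid gland, which arises in the endoderm of a pharyngeal pouch under the transcription factor Gcm2, next to arches filled by NCCs. A sort for the Wnt1-Cre lineage selects neural crest derivatives, and none of these endodermal tissues belongs to that lineage.

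The start regions of the genes are shown because Alb and Afp stand side by side on mouse chromosome 5, whereas Pth lies on chromosome 7, and all were lower in the same arrays. Each sequence is taken from RefSeq on GRCm38.p6 and runs 5′ to 3′ on the gene's strand for 300 bases, the last 50 of them from the annotated start onward. Capitals mark matches to 1 of 5 motifs searched on both strands: the consensus site of the liver factor HNF1 with its variable positions free, the TATA box TATAAA, the CCAAT box, the cAMP response element TGACNTCA, and ATGCGGGT, a site of the GCM factors. On the opposite strand the CCAAT box reads ATTGG.
Afp, chr5:90490464-90490763, plus strand: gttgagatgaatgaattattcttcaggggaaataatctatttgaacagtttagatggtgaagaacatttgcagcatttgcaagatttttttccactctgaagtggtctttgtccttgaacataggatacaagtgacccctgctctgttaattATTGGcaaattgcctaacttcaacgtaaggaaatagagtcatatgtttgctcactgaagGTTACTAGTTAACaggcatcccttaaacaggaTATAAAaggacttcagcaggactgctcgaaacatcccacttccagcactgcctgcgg
Alb, chr5:90460620-90460919, plus strand: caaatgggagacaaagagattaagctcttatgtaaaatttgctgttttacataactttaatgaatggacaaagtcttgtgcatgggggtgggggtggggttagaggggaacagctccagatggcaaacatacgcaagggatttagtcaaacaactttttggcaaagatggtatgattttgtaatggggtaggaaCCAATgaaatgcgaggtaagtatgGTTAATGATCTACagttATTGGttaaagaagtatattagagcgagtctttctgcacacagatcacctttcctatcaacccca
Pth, chr7:113388524-113388823, minus strand: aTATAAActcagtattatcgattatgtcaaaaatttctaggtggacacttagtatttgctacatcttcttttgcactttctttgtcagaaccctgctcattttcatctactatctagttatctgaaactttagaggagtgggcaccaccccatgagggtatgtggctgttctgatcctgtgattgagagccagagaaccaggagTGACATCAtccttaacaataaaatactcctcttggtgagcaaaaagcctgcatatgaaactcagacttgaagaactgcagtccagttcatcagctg

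The Afp and Alb windows share a match to the HNF1 consensus, GTTACTAGTTAAC at positions -39 to -27 before the annotated start of Afp and GTTAATGATCTAC at positions -32 to -20 before that of Alb. The consensus was found in 0.599% of 32544 start regions of this length. The Pth window has no such match, and holds TGACATCA at positions -46 to -39, a match to the cAMP response element that 8.62% of start regions share. A TATAAA match lies at positions -7 to -2 in the Afp window and at positions -249 to -244 in the Pth window, against 13.6% of start regions with 1 or more. CCAAT or its reverse was found once for Afp and in 2 places for Alb, against 37.4% of start regions, and the GCM letters, present in 0.258%, in none of these windows. The motifs were picked with known elements of such promoters in mind, the matches do not overlap each other, and they describe sequence only.

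Afp was lower in both NKO samples on each of its 4 probe sets. Probe set 1416645_a_at had intensities of 66.9 and 58.5 in the NKO samples, against 218.9 and 211.7 in the control samples. Probe set 1436879_x_at gave 33.3 and 34.5 in the NKO samples, against 128.5 and 138.6 in the controls. For 1436881_x_at the intensities were 23.4 and 26.5 in the NKO samples, against 83.3 and 77.0 in the controls. Every NKO value of these probe sets lay below every control value, as it did for 1416646_at, with 15.3 and 16.2 in the NKO samples, against 81.3 and 74.2 in the controls. The names of 2 of these probe sets end in x_at, which Affymetrix gives to probe sets whose probes may also match other transcripts. Probe sets of 1 gene read the same RNA on the same arrays and are not replicates of each other.

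**Figure D1:**
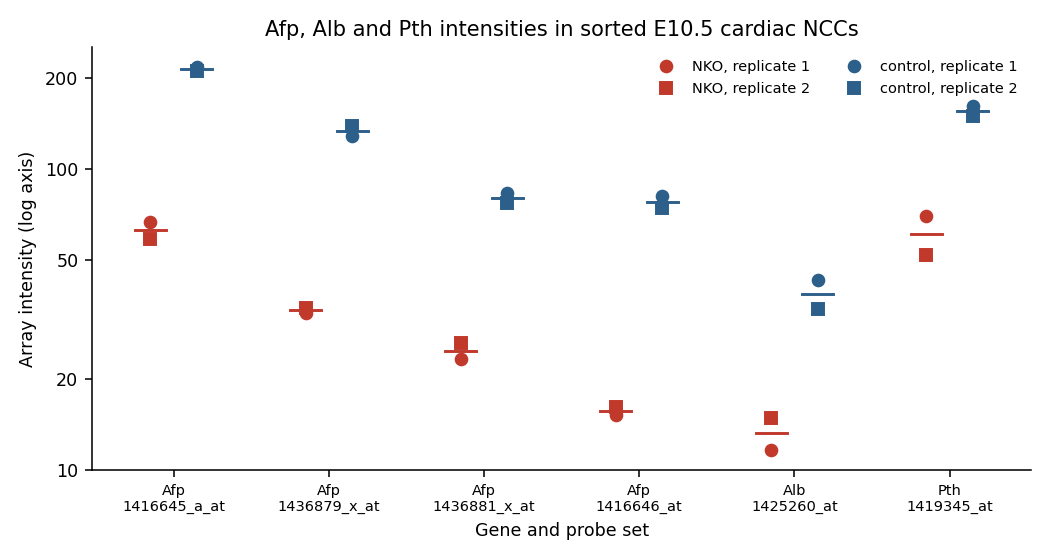
Array intensity (log axis) of the 6 Afp, Alb and Pth probe sets in NKO (red) and control (blue) samples, with circles for replicate 1, squares for replicate 2 and a line at the mean of the 2 arrays. In every probe set the red and blue symbols are apart, with Afp 1416645_a_at at 66.9 and 58.5 in NKO samples, against 218.9 and 211.7 in controls.

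The 4 Afp probe sets shared the direction of the difference and varied in its size on the linear scale. Mean NKO intensity was 29.1% of the control mean for 1416645_a_at, 25.4% for 1436879_x_at, 31.1% for 1436881_x_at and 20.3% for 1416646_at, which is 3.22-fold to 4.94-fold lower. Log2 fold changes were taken after adding 16 to each intensity, which keeps values near 0 from dominating and also narrows the differences of dim probe sets. On this scale 1416645_a_at was at -1.56 (standard error 0.079), 1436879_x_at at -1.58 (standard error 0.066), 1416646_at at -1.56 (standard error 0.069) and 1436881_x_at at -1.23 (standard error 0.075). The spread among the probe sets was 0.35, and 0.58 with an offset of 1, where 1416646_at moved to -2.23. The 2 NKO samples differed by at most 0.15 in log2 on any Afp probe set, whereas the nearest NKO and control samples were at least 1.13 apart.

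Alb, the neighbour of Afp, was read by 1 probe set of low intensity. Probe set 1425260_at gave intensities of 11.7 and 14.9 in the NKO samples, against 42.8 and 34.1 in the control samples. The values of the genotypes did not overlap, but all 4 were below the median probe set of their arrays, which lay between 75.9 and 79.3. The NKO values of the other members were below that median too, with Afp 1416646_at at 15.3 and 16.2. For Alb, mean NKO intensity was 34.5% of the control mean, or 2.90-fold lower. The log2 fold change was -0.89 (standard error 0.11), and it moved with the offset, to -1.47 at an offset of 1 and -0.41 at an offset of 64.

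Pth was also lower in both NKO samples, and its NKO samples were the least alike of those of any member. Probe set 1419345_at had intensities of 69.7 and 51.9 in the NKO samples, against 161.4 and 150.0 in the controls. The NKO samples were 0.34 apart in log2, compared with 0.096 between the controls, while the nearest NKO and control samples were 0.95 apart. Mean NKO intensity was 39.1% of the control mean, or 2.56-fold lower, with a log2 fold change of -1.17 (standard error 0.13). This value was -1.34 without the first NKO sample and -1.002 without the second.

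Set array by array, each NKO sample can be divided by each control, which gives 4 ratios that share their arrays. For Afp they lay between 26.7% and 31.6% for 1416645_a_at, 24.0% and 26.8% for 1436879_x_at, 28.1% and 34.4% for 1436881_x_at, and 18.8% and 21.9% for 1416646_at. For Alb they lay between 27.2% and 43.7%, and for Pth between 32.2% and 46.5%. The ranges of Alb and Pth overlapped, so that these genes cannot be put in order. The ranges of Pth and of 3 Afp probe sets did not overlap, while 1436881_x_at reached into the range of Pth. The range of Alb overlapped those of 2 of the 4 Afp probe sets, 1416645_a_at and 1436881_x_at, so that Afp as a whole cannot be put in order with Alb or Pth either. The log2 fold change of Afp 1416645_a_at minus that of Pth was -0.39 at an offset of 16 and -0.41 at an offset of 1. That of Alb minus that of Pth turned its sign with the offset, at 0.28 with 16 and at -0.11 with 1. Afp 1436881_x_at was further from 0 than Pth at an offset of 16, but at an offset of 64 it was at -0.70 and Pth at -0.82. None of these contrasts between genes was tested, because the genes were selected on the difference.

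**Figure D2:**
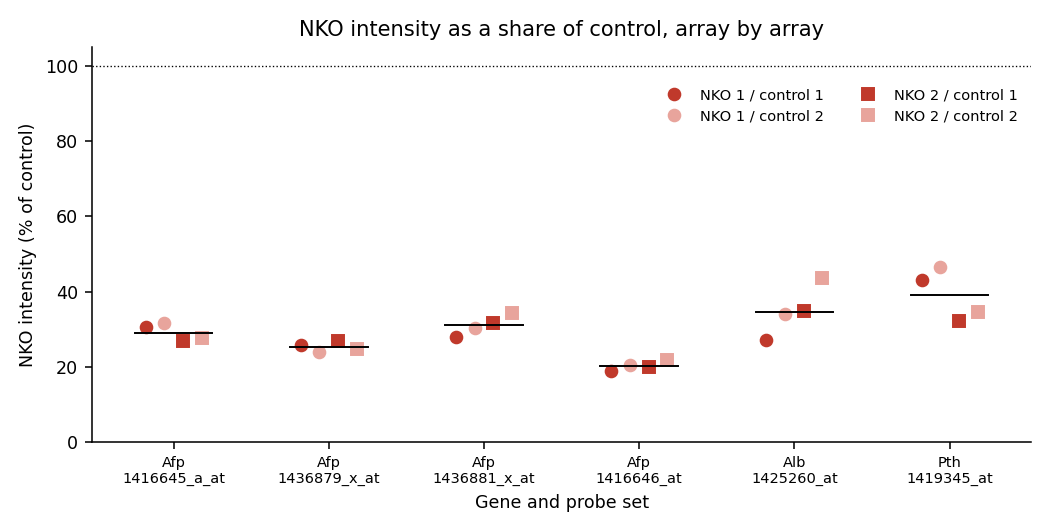
NKO intensity as a percentage of control intensity for each of the 4 pairs of arrays (circles, first NKO sample; squares, second NKO sample; dark, first control; pale, second control), with a line at the ratio of the means and a dotted line where NKO and control are equal. All ratios lie between 18.8% and 46.5%, with the Afp probe sets at 34.4% or below.

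The methods' cutoff of 1.5-fold was applied here on the log2(intensity + 16) scale, which the methods do not name. On this scale all 6 probe sets were at least 1.5-fold lower in the NKO samples. So were 0.158% of the 45037 probe sets that are not Affymetrix controls (71 probe sets). Both NKO samples lay below both controls in all 6, beside 18.4% of those probe sets. Selection on the same contrast favoured such differences, and nothing is read from these counts. The median log2 fold change was -1.40 over the 6 probe sets and 0.013 over the 45037. At an offset of 64 Alb was no longer past the cutoff and 5 of 6 remained. The 71 became 218 without the first NKO sample, 259 without the second, 145 without the first control and 152 without the second. The members were all among the 10 lowest of the array at an offset of 16, 5 of them at an offset of 64 and 0 at an offset of 1, where 1557 probe sets were at least 1.5-fold lower.

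**Figure D3:**
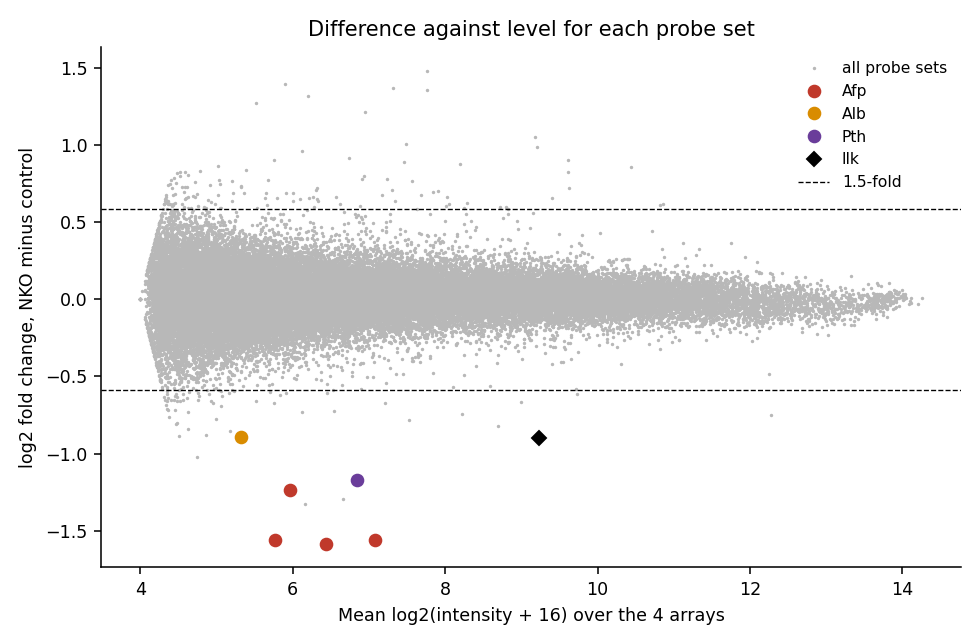
Log2 fold change (NKO minus control) against mean log2(intensity + 16) over the 4 arrays for each of the 45037 probe sets (grey), with Afp (red), Alb (orange), Pth (purple) and Ilk (black diamond), and dashed lines at 1.5-fold in either direction. The Afp probe sets lie between -1.58 and -1.23, with Pth at -1.17 and Alb at -0.89, and the grey cloud widens towards low intensity.

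Within a genotype, every gap between arrays of a member lay below the 95th percentile of all probe sets. Over all probe sets, the median gap between the 2 NKO samples was 0.10 in log2 and that between the controls 0.078, with 95th percentiles of 0.47 and 0.37. The largest gap of a member within a genotype was that of Pth between the NKO samples, at 0.34. The members did not share an order within genotypes, since the first NKO sample was the higher in 2 of 6 probe sets and the first control in 5 of 6. Ilk, the deleted gene, gave 467.7 and 386.7 in the NKO samples, against 809.5 and 800.7 in the controls, in the direction of the labels. Its log2 fold change was -0.90 (standard error 0.11), and no source used here places its probe set on the exons.

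Few other genes of the same tissues could be named. Among 112 genes on 5 lists of endodermal, parathyroid and related genes, 5 had a probe set of their own in the authors' deposited table, the 3 members and 2 others. Over the whole array, 605 of 45101 probe sets carried 1 gene name in that table. What share of all genes it names is unknown here. Of 33 serum proteins of yolk sac and liver, such as the transport proteins Ttr and Apoa1, Afp and Alb were the listed ones. Of 21 regulators and receptors of visceral endoderm and liver, such as Hnf4a and the endocytic receptor gene Cubn, 0 were listed. The same held for 21 foregut epithelial genes such as Epcam and Cdh1, and for 8 receptors and relatives of parathyroid hormone such as Pth1r. A gene that is not listed either did not pass the authors' threshold or has no probe set named for it alone here, so its level is unknown.

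On the list of 29 genes of the parathyroid and its pharyngeal pouch, Pth stood with 2 transcription factor genes of the pharyngeal region that had higher intensities in NKO samples. Tbx3, a T-box gene, had 261.3 and 260.1 in the NKO samples, against 208.6 and 188.4 in the controls, on probe set 1437479_x_at. On 1448029_at, Tbx3 had 489.6 and 490.7 in the NKO samples, against 415.1 and 412.8 in the controls. The log2 fold changes of Tbx3 were 0.37 (standard error 0.073) and 0.24 (standard error 0.056), with limma adjusted p of 0.538 and 0.541. Six4, a homeobox gene, had 543.2 and 555.5 in the NKO samples, against 498.5 and 438.9 in the controls, which is 0.22 in log2 (standard error 0.084, limma adjusted p 0.569). Gcm2, the regulator of parathyroid fate, was not listed. With limma, 0 of the 45037 probe sets (0%) had an adjusted p under 0.05, while 3972 had an unadjusted p under 0.05 and 520 passed once limma moderated the spread robustly along an intensity trend.

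The place of Afp and Alb in the genome brought them beside genes with the opposite sign. By gene order in RefSeq, Alb precedes Afp with no coding gene between them, and Afm, a further family member that was not listed, follows Afp. Within 1 Mb of Afp lie 20 other coding genes, of which 3 were listed: Alb, Pf4 and Ppbp. Pf4, a platelet chemokine gene, had 1893.5 and 1818.6 in the NKO samples, against 1034.5 and 1002.2 in the controls, which is 0.86 in log2 (standard error 0.061, limma adjusted p 0.359). Ppbp, another platelet chemokine gene, had 1044.9 and 1070.7 in the NKO samples, against 565.0 and 553.3 in the controls, which is 0.90 in log2 (standard error 0.058, limma adjusted p 0.296). The listed genes of this interval thus had both signs. Of 11 coding genes within 1 Mb of Pth, 0 were listed. What share of all coding genes was listed is unknown here, and Alb was a member from the start. Listed genes had also been selected on this contrast, so the counts and signs near Afp and Pth are a description only.

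**Figure D4:**
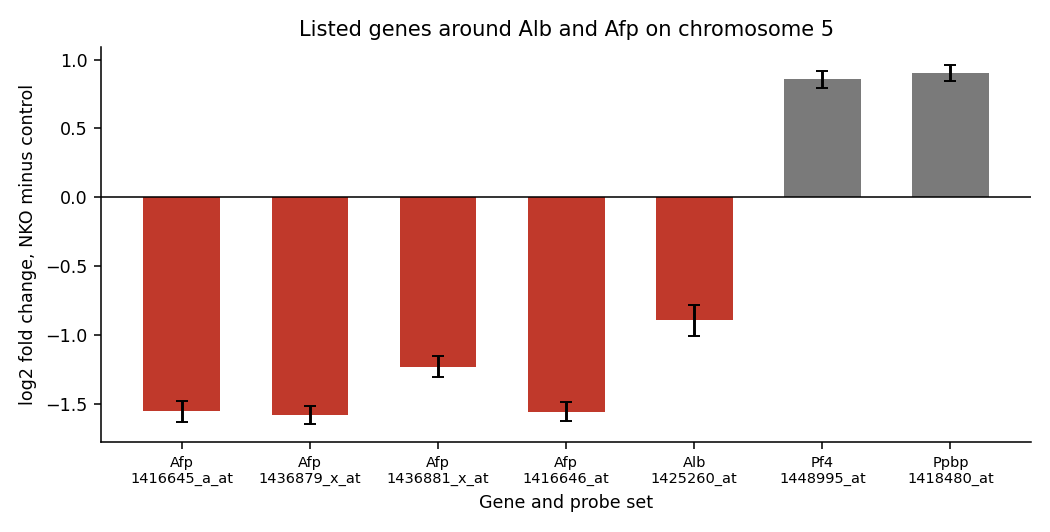
Log2 fold change (NKO minus control, log2 of intensity + 16) of the probe sets of Afp, Alb, Pf4 and Ppbp, the listed genes within 1 Mb of Afp on chromosome 5, with bars for the estimate and error bars for limma's standard error. Afp and Alb have negative bars of -1.58 to -0.89, while Pf4 and Ppbp are at 0.86 and 0.90.

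Among the other 539 genes named alone in the authors' deposited table, the pattern over the 4 arrays was compared with that of each member by the Euclidean distance between log2 values centred on their own means. Ilk was the nearest gene for 5 of 6 member probe sets, at 0.28 for Pth and at 0.43 to 0.72 for the Afp probe sets. The Afp probe sets were closer to each other, at 0.15 to 0.38 over 6 pairs. H2afv, a histone variant gene, was the nearest to Alb at 0.24, ahead of the T cell receptor complex gene Cd3e at 0.25 and the decoy interleukin receptor gene Il1r2 at 0.29. The next to Pth after Ilk were H2afv at 0.35 and Xist, the RNA of the inactive X chromosome, at 0.43. For Afp 1416645_a_at they were H2afv at 0.75 and Xist at 0.82, and for the other Afp probe sets H2afv and Cd3e, at 0.49 and 0.52 for 1436881_x_at, 0.81 and 0.86 for 1436879_x_at and 0.78 and 0.83 for 1416646_at. With 4 arrays this distance mostly follows the size of the difference between genotypes.

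Listed genes of other cell types differed between the same arrays. They too had been selected on this contrast, so their counts and signs are a description only. The listed platelet genes (9 of 16) had higher intensities in the NKO samples on all 10 probe sets, with summed intensities of 3909.0 to 4016.8 in NKO samples, against 2255.0 to 2275.0 in controls. For myeloid genes (4 of 13) the sums were 627.0 to 669.9 in NKO samples, against 423.9 to 434.8 in controls, for red blood cell genes (3 of 14) 2599.0 to 2648.8, against 2117.7 to 2171.0, and for endothelial genes (2 of 10) 651.8 to 699.9, against 535.2 to 539.5. Heart muscle genes (7 of 14) had the sign of the members on all 9 probe sets, with sums of 9979.8 to 10070.5 in NKO samples, against 12234.0 to 12305.7 in controls. The neural crest genes Pax3, Msx2 and Prrx1 (3 of 19) summed to 5547.1 to 5591.9 in NKO samples, against 4591.7 to 4772.7 in controls, while others such as Sox10 were not listed. No listed probe set of these markers was at 0, and with limma 0 of them had an adjusted p under 0.05. By comparison, the 5 Afp and Alb probe sets summed to 150.5 to 150.6 in NKO samples, against 535.7 to 554.9 in controls. That sum reads Afp RNA 4 times. Its near-equal NKO values hide opposite orders, with 66.9 and 58.5 for Afp 1416645_a_at but 11.7 and 14.9 for Alb. Each sum mostly follows its brightest probe sets, such as Prrx1 1425528_at with 4716.8 and 4698.0 in NKO samples. In RNA of a cell population, fewer cells of a type and less RNA per cell cannot be told apart, and the part of other cell types in the differences of Afp, Alb and Pth was not tested.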

How the data were processed

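RNA of NCCs sorted from the OFTs of NKO and control embryos was hybridized to 4 Affymetrix mouse arrays, 2 per genotype. The authors deposited linear intensities that they had normalized. Affymetrix Expression Console is listed in the submitters' processing notes, and no source used here gives the algorithm. Averaged control arrays came within 0.0447% of the control intensity that the authors deposited, and array medians lay between 75.9 and 79.3. Names of genes were read from the authors' table of differences, whose fold changes and p-values from VAMPIRE (Bonferroni threshold of 0.05) were not used. In it 605 of 766 probe sets carry 1 name.

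After 64 Affymetrix controls were left out, log2(intensity + 16) of 45037 probe sets was fitted in R 4.3.3 by limma 3.58.1 (lmFit, then eBayes), with Benjamini-Hochberg adjustment over all of them. The step was tested on simulated data. Tables and figures used Python 3.11.15, pandas 2.3.3, numpy 2.4.6 and matplotlib 3.10.9. The members, gene lists and tests were chosen with earlier results of these data known. Genes named with values by rule were the members, Ilk, all other listed members of the 5 lists of endodermal, parathyroid and related genes and, for each member probe set, the 3 nearest genes. The 6 lists of other cell types are given by counts and sums. Pf4, Ppbp and the neural crest genes were singled out after their values were seen, and unlisted genes are named only as examples of a list or as a neighbour. Arrays carry no read depth, and their number limits the precision. Alternatives were other scalings and offsets, 1 array left out, dim probe sets left out, the replicate number as a block, and other moderation. A Student t test, which the paper names for its statistics in general, was also run.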

Additional observations from a re-analysis of the deposited data

How the results depend on the processing

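All 6 probe sets were lower in NKO samples under every alternative that gave them a value. For leaving out 1 array and for other offsets this was fixed beforehand, because the genotypes did not overlap. The replicate block and the fit to brighter probe sets left each log2 fold change as it was. Among the alternatives, only quantile normalization and median centring could have changed the direction. Quantile normalization and median centring moved each log2 fold change by less than 1 SD between replicates. Leaving out 1 of 2 arrays cannot move it by more than that SD, so only the ranges are given. With 1 array left out, Afp lay between -1.63 and -1.18, Alb between -1.01 and -0.78 and Pth between -1.34 and -1.002. The offset moved them further. At an offset of 1 the log2 fold changes were -1.77 for Afp 1416645_a_at, -1.95 for 1436879_x_at, -1.65 for 1436881_x_at, -2.23 for 1416646_at, -1.47 for Alb and -1.36 for Pth, with a spread of 0.58 among the Afp probe sets. At an offset of 64 they were -1.14, -1.01, -0.70 and -0.83 for the Afp probe sets in that order, -0.41 for Alb and -0.82 for Pth. A larger offset narrows dim probe sets by construction.

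The count of probe sets at least 1.5-fold lower was 71, and 1557 at an offset of 1, 13 at an offset of 64, 13 among probe sets brighter than the median and 145 to 259 with 1 array left out. Of the members, Pth and the Afp probe sets 1416645_a_at and 1436879_x_at are brighter than the median, although their NKO values lay below the medians of their arrays. The limma count at an adjusted p under 0.05 was 0, but 60 at an offset of 64, 52 among the brighter probe sets and 520 with the spread moderated robustly along an intensity trend. The cause was not tested. The paper's methods give a 1.5-fold cutoff for the arrays, and the Student t test for comparisons of groups in general. Run here, that test passed 3973 probe sets unadjusted, of which 125 also met the 1.5-fold cutoff, and 0 once p was adjusted by Benjamini-Hochberg. With the replicate number as a block limma also passed 0. Nothing in the labels ties same-numbered arrays beyond the number. The correlation of their deviations was -0.033 over probe sets, and with 2 pairs it cannot show whether they shared a step of handling. No detection calls were used here, so how far the NKO values of Afp, Alb and Pth stand above background is unknown.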

Other observations

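Beside the members and Ilk, the 10 lowest probe sets of the array held 3 with no single gene name here. The authors' deposited table lists 2 of them, with no name or with several, and does not list 1. Probe set 1447458_at had intensities of 32.2 and 26.4 in the NKO samples, against 93.4 and 101.6 in the controls, a log2 fold change of -1.33 (standard error 0.093). Probe set 1447096_at had 50.9 and 46.2 in the NKO samples, against 148.9 and 136.2 in the controls, a log2 fold change of -1.30 (standard error 0.078). In its pattern over the 4 arrays 1447096_at was 0.17 from Afp 1436881_x_at, and 1447458_at was 0.24 from Pth. The unlisted probe set had 1.76 and 3.85 in the NKO samples, against 22.2 and 22.1 in the controls, a log2 fold change of -1.02 (standard error 0.079), and was 0.20 from Alb. These probe sets were picked for being among the lowest, as the members are, and the distance mostly follows the size of the difference. Each distance is also that to the nearest member probe set, so it ties none of them to that gene. Which transcripts these probe sets read was not analysed here.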
